A study of Mus musculus with 14 samples.

Results

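Among the genes measured in cultured mouse BFU-E, 8 encode proteins of the red cell membrane and of the spectrin skeleton beneath it. They are Slc4a1, Rhag, Rhd, Kel, Ank1, Epb42, Sptb and Epb41, named by gene symbol and not by their response, out of 23599 symbols read for compound OB with its DMSO (the OB set) and 54540 for compound PD with its DMSO (the PD set). All 8 were found in both sets. Epb42 and Epb41 are listed for the OB libraries under older symbols and were matched through RefSeq synonyms, and in each set all 8 passed the filter on low values, a mean of at least 1 FPKM (fragments scaled by gene length and by the mapped fragments of the library) over the 6 libraries.

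BFU-E (burst-forming unit-erythroid cells) are early progenitors of the red cell lineage, here isolated from C57BL/6 fetal liver and cultured in StemSpan SFEM II medium. RNA was sequenced in 12 libraries, 3 in each of 4 groups: compound OB at 100 µM, the DMSO solvent controls of compound OB, compound PD at 3 nM, and a separate group of DMSO controls of compound PD. The labels give no age, culture time or number of animals and do not say that replicates came from separate cultures, so p-values measure only the spread between these libraries, which may be technical. Another 2 samples, for chromatin bound by the factor CREB and the matching input, are not analysed here.

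The red cell membrane is held to a mesh of spectrin through a pair of bridges. One runs from the anion exchanger Slc4a1 (band 3) through ankyrin, and the other from glycophorin C through the Epb41 protein at the junction of spectrin with actin. Rh proteins sit beside band 3, and inherited defects of band 3, ankyrin or spectrin cause spherocytic anaemias. The genes are switched on as erythroid progenitors mature into haemoglobin-making cells.

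Some libraries stood apart. In the PD set, DMSO replicate 1 held every one of the 8 genes at 1.502 to 3.47 times the mean of DMSO replicates 2 and 3. Over all genes tested the median of this ratio was 0.795, with 9.78% at least 1.5-fold higher and 31.4% at least 1.5-fold lower there. Also in the PD set, compound PD replicate 1 held the 8 genes at 0.533 to 0.791 times the mean of replicates 2 and 3 of compound PD, 5 of them at least 1.5-fold lower, where 7.32% of all genes were that much lower and 10.7% that much higher. For compound OB, replicate 1 of compound OB and replicate 1 of its DMSO stood apart together in the markers of other cells given below. Results for compound PD are therefore given with and without these libraries. For compound OB without replicate 1 of both groups, fold changes are given only for Sptb, Ank1 and Epb42.

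The cells carried the defining erythroid genes. Gata1, the main erythroid transcription factor, ranged from 132 to 185 FPKM over the OB libraries and from 132 to 142 FPKM over the PD libraries. Klf1, a second erythroid regulator, ranged from 208 to 281 and from 125 to 204 FPKM, and the transferrin receptor Tfrc from 363 to 736 and from 318 to 633 FPKM. Kit, the stem cell factor receptor of early progenitors, ranged from 23.1 to 41.7 and from 20.4 to 41.2 FPKM, and Gata2, a progenitor factor, from 21.0 to 53.8 and from 37.8 to 89.3 FPKM.

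Promoter sequence is shown first for the genes whose 250 bases before a start site hold the clearest matches to erythroid or CREB motifs. CREB binding is a subject of the series. Any part of these motifs in the levels of the 8 genes was not tested. Sequences are those of RefSeq on GRCm38.p6, the assembly named mm10, read 5′ to 3′ on the strand of the gene. The table holds 8 promoters for 6 of the genes, 3 of them for Epb41. Capitals mark matches on either strand to the letters of GATA factors (AGATAA or its variant ending in G, AGATAG, and with T in front TGATAA or, ending in G, TGATAG), and in Epb41 also the cAMP response element TGACGTCA.
Kel, chr6:41704326-41704575, minus strand: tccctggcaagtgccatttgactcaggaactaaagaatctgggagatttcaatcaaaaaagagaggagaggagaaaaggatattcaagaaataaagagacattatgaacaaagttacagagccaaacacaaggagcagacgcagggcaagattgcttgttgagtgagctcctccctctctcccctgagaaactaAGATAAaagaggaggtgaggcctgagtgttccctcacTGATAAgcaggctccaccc
Rhd, chr4:134864286-134864535, plus strand: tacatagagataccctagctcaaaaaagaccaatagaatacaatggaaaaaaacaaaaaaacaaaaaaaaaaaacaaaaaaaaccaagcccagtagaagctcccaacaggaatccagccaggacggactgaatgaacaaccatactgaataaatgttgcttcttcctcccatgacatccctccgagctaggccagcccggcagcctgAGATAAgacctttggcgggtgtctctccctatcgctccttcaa
Rhag, chr17:40810899-40811148, plus strand: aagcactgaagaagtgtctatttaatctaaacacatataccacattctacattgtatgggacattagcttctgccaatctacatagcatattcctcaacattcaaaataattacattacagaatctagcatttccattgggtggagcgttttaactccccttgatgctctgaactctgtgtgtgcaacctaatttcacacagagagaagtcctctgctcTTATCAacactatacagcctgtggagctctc
Epb41, chr4:132075314-132075563, minus strand: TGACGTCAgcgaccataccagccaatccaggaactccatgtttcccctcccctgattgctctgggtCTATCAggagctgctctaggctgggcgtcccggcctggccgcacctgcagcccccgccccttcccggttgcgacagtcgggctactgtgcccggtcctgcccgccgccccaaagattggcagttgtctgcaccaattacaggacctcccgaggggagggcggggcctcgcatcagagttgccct
These letters were found for 5 of the 6 genes, in 5 of their 8 promoters, while 26.5% of 32851 mouse promoter windows of the same length hold one. Kel has matches whose leftmost letters lie 56 and 19 bases before the start, and 6.40% of all windows hold 2 or more. In Rhd the match begins 43 bases and in Rhag 31 bases before the start. The start meant here is the one at which each window ends. For Rhag the window ends at 40811148, past the gene start at 40811099, so its GATA match lies inside the gene span given below. The windows of Kel and Epb41 also reach into their gene spans, but their GATA matches lie outside them. The letters CACCC, to which KLF factors can bind, occur on either strand in the windows of Kel, Rhd, Rhag and Sptb, that is in 4 of 8 promoters, against 52.0% of all windows. The cAMP response element in the Epb41 window begins at its first base, 250 bases before the start, and 1.55% of all windows hold one. These matches are a description of letters and not of bound sites. In GRCm38.p6 the genes span chromosome 11, 102348820 to 102365281 (Slc4a1), chromosome 17, 40811099 to 40844094 (Rhag), chromosome 4, 134864536 to 134896172 (Rhd), chromosome 6, 41686329 to 41704334 (Kel), chromosome 8, 22974836 to 23150501 (Ank1), chromosome 2, 121017891 to 121036877 (Epb42), chromosome 12, 76580488 to 76710547 (Sptb) and chromosome 4, 131923413 to 132075346 (Epb41).

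The first question was whether compound OB altered these transcripts relative to its own DMSO. None of the 8 passed the threshold (limma on log2(FPKM + 1), adjusted p of 0.05 over 10073 genes), and no other gene did (0%). At an unadjusted p under 0.05 there were 372 genes (3.69%), among them Slc4a1 and Sptb. The log2 fold changes, compound minus DMSO, had a median of 0.16 over the 8 genes and were positive for 7, against a median of 0.03 and 58.7% positive over all genes tested. With median-ratio scaling 49.3% of all genes were positive and the 8 genes still had 7 positive values (median 0.13). The labels give shared replicate numbers but state no pairing. With same-numbered libraries taken as pairs in a block, 4 genes of the table passed higher (0.0397%) and 3 lower (0.0298%), none of them among the 8.

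Slc4a1, which exchanges chloride for bicarbonate and anchors the skeleton, had 427, 372 and 333 FPKM with compound OB, against 311, 296 and 334 FPKM in DMSO. Its means were 377 ± 47.1 FPKM with compound OB and 314 ± 19.3 FPKM in DMSO (SD, n = 3 each), and of the compound libraries only replicate 3 lay within the DMSO range (log2 fold change 0.26, SE 0.11, adjusted p = 1.00 by limma, 0.306 with the block). Rhag, the Rh-associated glycoprotein needed to bring the Rh complex to the membrane, had 240, 239 and 241 FPKM with compound OB, against 198, 212 and 232 FPKM in DMSO. It was the one member whose groups did not overlap (log2 0.17, SE 0.08, adjusted p = 1.00 by limma), where 5.31% of all genes were higher and 3.42% lower without overlap. In bulk RNA a different number of cells of a type and a different amount of RNA per cell cannot be told apart.

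Rhd, which carries the Rh blood group, had 180, 182 and 196 FPKM with compound OB, against 151, 162 and 191 FPKM in DMSO. The compound value was the higher in each of the 3 numbered pairs, by 1.19, 1.13 and 1.03 times, but the groups overlapped. Kel, a metalloprotease that carries the Kell blood group, had 126, 151 and 156 FPKM with compound OB, against 132, 148 and 175 FPKM in DMSO. It was the one member with a negative fold change (log2 −0.07, 95% interval −0.39 to 0.25).

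Ank1, the ankyrin that ties spectrin to band 3, had 76.5, 80.5 and 60.6 FPKM with compound OB, against 75.8, 52.7 and 56.1 FPKM in DMSO. Epb42, a transglutaminase-like protein without enzyme activity that binds band 3, had 57.4, 58.7 and 59.1 FPKM with compound OB, against 49.5, 57.9 and 63.8 FPKM in DMSO. The means of Epb42, 58.4 ± 0.868 and 57.1 ± 7.21 FPKM (SD, n = 3 each), differed by less than the spread of the DMSO libraries.

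Sptb, the beta chain of spectrin, had 92.0, 95.02 and 74.1 FPKM with compound OB, against 81.0, 60.4 and 61.2 FPKM in DMSO. It had the highest log2 fold change of the 8 (0.37, SE 0.15, adjusted p = 1.00 by limma, 0.260 with the block), and the compound value was higher in 3 of 3 pairs, by 1.14, 1.57 and 1.21 times. Epb41, which strengthens the spectrin-actin junction, had 188, 145 and 123 FPKM with compound OB, against 180, 117 and 125 FPKM in DMSO. Both values over 170 FPKM were those of replicate 1, one in each group.

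**Figure D1:**
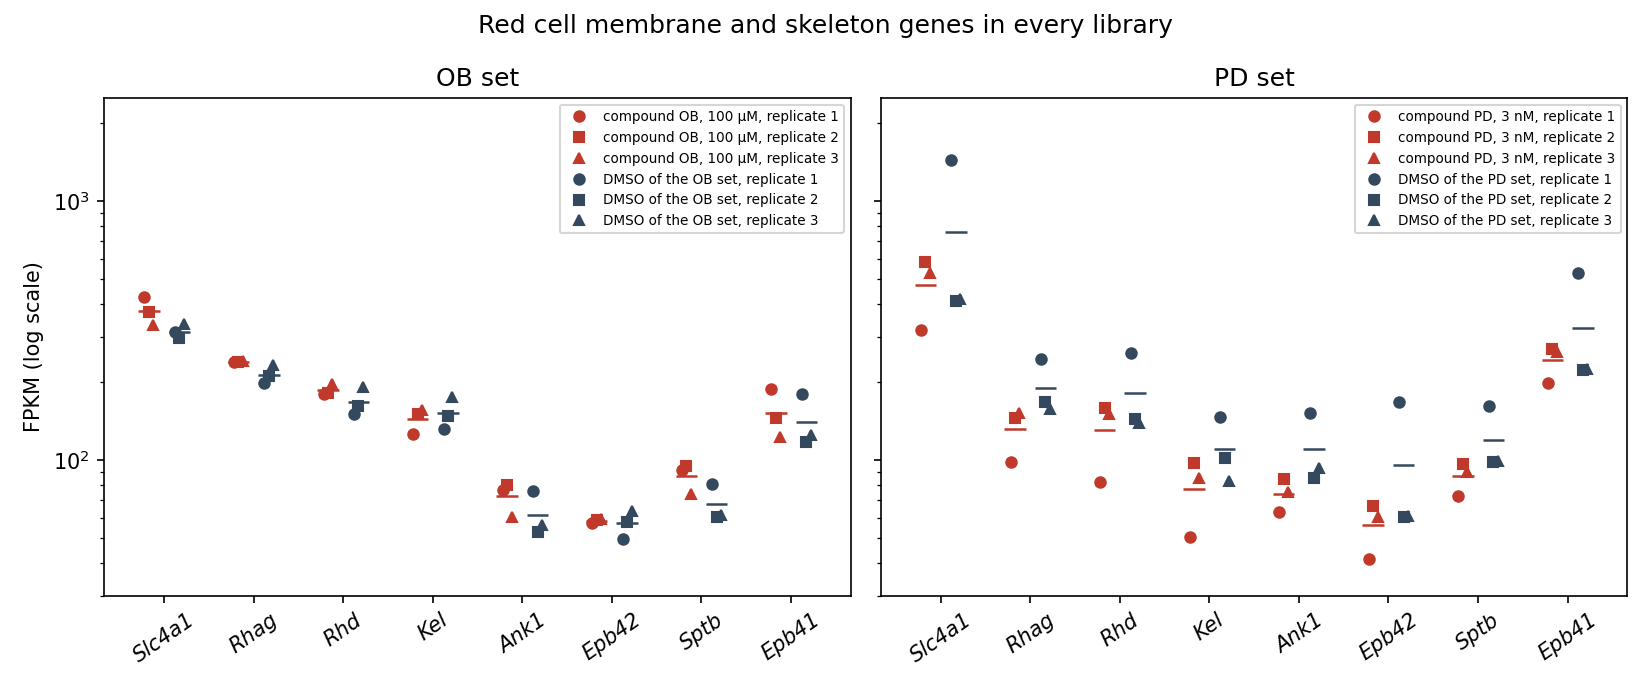
FPKM of each gene in each library (log axis), OB set left and PD set right, with compound in red, DMSO in dark blue, a marker shape for each replicate number and a line at the group mean. In the PD set the circle of DMSO replicate 1 lies above all 5 other libraries for each of the 8 genes, and that of compound PD replicate 1 lies below them.

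The 8 genes did not follow the OB replicates alike. In DMSO replicate 1 the skeleton and ankyrin genes stood at 1.48 (Epb41), 1.39 (Ank1) and 1.33 (Sptb) times the mean of replicates 2 and 3, while Kel stood at 0.815, Epb42 at 0.813, Rhd at 0.855 and Rhag at 0.893. Replicate 1 of compound OB held Epb41 at 1.41 and Kel at 0.824 times its replicates 2 and 3. These same libraries held the summed neutrophil markers (9 genes, 8 of them at a mean of at least 1 FPKM) at 483 FPKM in compound OB replicate 1 and 578 FPKM in DMSO replicate 1, against 164 and 179 FPKM in the other compound libraries and 144 and 145 FPKM in the other DMSO libraries. The part of other cells in these ratios was not tested.

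Without replicate 1 of both groups, a choice made after seeing the data, Sptb and Ank1 passed the threshold as higher with compound OB. Sptb then had a log2 fold change of 0.46 (SE 0.10, adjusted p = 1.93e-04 by limma) and Ank1 one of 0.36 (SE 0.10, adjusted p = 0.00531 by limma). In that fit 15.4% of all genes passed as higher and 2.42% as lower, beside 2 of the 8 members as higher. With the block and without replicate 1, Sptb was the 1 member of the 8 that passed (adjusted p = 0.0121 by limma). Of 9967 genes tested, 969 passed there as higher and 164 as lower. In these fits each group rests on 2 libraries. In the fit without the block, SEs were nearly alike between genes, with 0.101 for Gata2 and Kit and 0.115 for Flot2. Its p-values thus rest on a spread pooled over genes and not on the spread of Sptb or Ank1 itself.

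In the PD set the question was the same for compound PD. None of the 8 passed (limma, adjusted p of 0.05 over 11887 genes), where 1 gene of the table passed as higher (0.00841%) and 2 as lower (0.0168%). At an unadjusted p under 0.05 there were 1268 genes (10.7%), among them Ank1 and Rhag. All 8 log2 fold changes were negative, with a median of −0.49, against a median of 0.06 over all genes tested and 40.9% negative. With median-ratio scaling 54.0% of all genes were negative and the 8 stayed negative (median −0.58). Without PD DMSO replicate 1 the median of the 8 was −0.19 with 6 negative, and without replicate 1 of both groups it was 0.03 with 4 negative (all genes −0.02 and −0.05). None of the 8 passed in these fits, in which 1.1% and 1.72% of all genes passed as higher and 0.301% and 0.395% as lower.

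Slc4a1 had 317, 580 and 527 FPKM with compound PD, against 1441, 412 and 419 FPKM in DMSO. The means were 475 ± 139 FPKM with compound PD and 757 ± 592 FPKM in DMSO (SD, n = 3 each), and the log2 fold change of −0.45 (SE 0.49) had a 95% interval of −1.61 to 0.70 (adjusted p = 0.879 by limma). Without PD DMSO replicate 1 it turned to 0.15 (SE 0.24, adjusted p = 0.785 by limma), and without replicate 1 of both groups to 0.41 (SE 0.08, adjusted p = 0.0633 by limma). The direction of Slc4a1 thus rested on 1 library, since compound PD replicates 2 and 3 lay above DMSO replicates 2 and 3.

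Rhag had 98.4, 145 and 152 FPKM with compound PD, against 245, 168 and 158 FPKM in DMSO. Its groups did not overlap, with or without PD DMSO replicate 1. The log2 fold change was −0.53 (SE 0.23, adjusted p = 0.447 by limma) with all libraries and −0.33 (SE 0.18, adjusted p = 0.368 by limma) without that library. It shrank to −0.14 without replicate 1 of both groups. Rhd had 82.5, 159 and 151 FPKM with compound PD, against 259, 144 and 140 FPKM in DMSO. Its log2 fold change was −0.46 with all libraries, −0.18 without PD DMSO replicate 1 and 0.12 without replicate 1 of both groups. Kel had 50.4, 97.2 and 85.6 FPKM with compound PD, against 147, 102 and 82.7 FPKM in DMSO. Without replicate 1 of both groups its groups lay together, with a log2 fold change of −0.01 (95% interval −0.33 to 0.30).

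Ank1 had 63.2, 84.6 and 75.1 FPKM with compound PD, against 152, 85.1 and 93.5 FPKM in DMSO. Its groups were separate by a margin under 1 FPKM (log2 −0.52, SE 0.23, adjusted p = 0.468 by limma; −0.27, SE 0.14, without PD DMSO replicate 1). Without replicate 1 of both groups the fold change of Ank1 was −0.16. Epb42 had 41.7, 66.7 and 60.5 FPKM with compound PD, against 167, 60.5 and 60.8 FPKM in DMSO. It had the most negative log2 fold change of the 8, −0.62 (SE 0.37, adjusted p = 0.661 by limma), and without PD DMSO replicate 1 this was −0.13 (SE 0.19).

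Sptb had 72.7, 97.0 and 90.3 FPKM with compound PD, against 162, 98.3 and 99.0 FPKM in DMSO. Its groups did not overlap (log2 −0.43, SE 0.22, adjusted p = 0.556 by limma), but without PD DMSO replicate 1 the fold change was −0.20 (SE 0.13). Without replicate 1 of both groups the fold change of Sptb was −0.08. Epb41 had 199, 268 and 263 FPKM with compound PD, against 526, 222 and 225 FPKM in DMSO. Its log2 fold change was −0.30 (SE 0.31) with all libraries and, as for Slc4a1, of the other sign without PD DMSO replicate 1 (0.11, SE 0.14).

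In all, Sptb, Ank1 and Rhag (3 of 8) were lower with compound PD without overlap, where 3.72% of all genes were. Without PD DMSO replicate 1 the same 3 genes were lower without overlap, and so were 20.8% of all genes, with 3 libraries against 2. No member was higher without overlap in either case, against 13.1% and 18.2% of all genes.

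**Figure D2:**
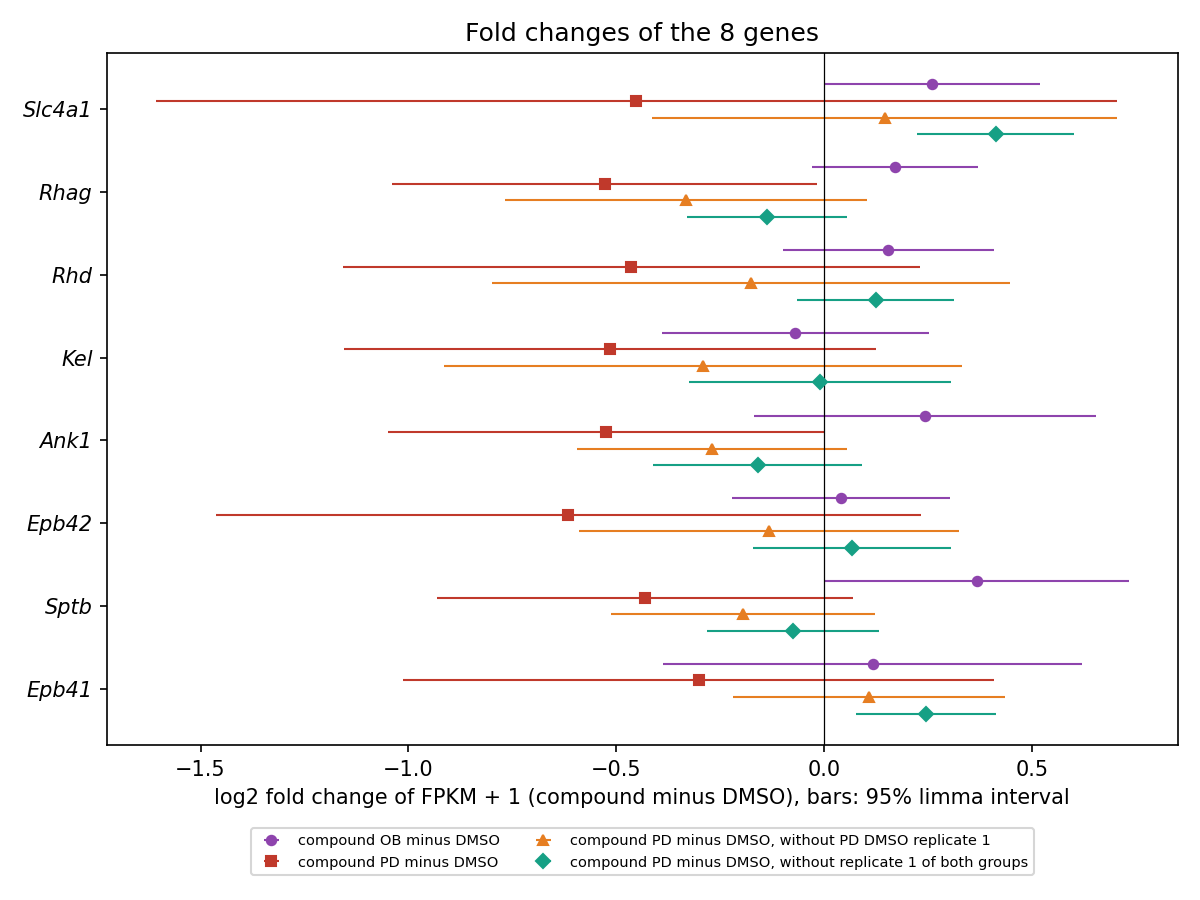
Log2 fold change (compound minus DMSO, on FPKM + 1) of each gene with its 95% limma interval, for compound OB, for compound PD with all libraries, without PD DMSO replicate 1 and without replicate 1 of both groups. Slc4a1 has −0.45 with all PD libraries, 0.15 without PD DMSO replicate 1 and 0.41 without replicate 1 of both groups.

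The excess in PD DMSO replicate 1 was uneven among the 8 genes. Against the mean of DMSO replicates 2 and 3 it was 3.47 times for Slc4a1, 2.75 for Epb42 and 2.35 for Epb41, but 1.83 for Rhd, 1.70 for Ank1, 1.64 for Sptb, 1.59 for Kel and 1.502 for Rhag. The 9 erythroid regulators and defining markers stood at 0.617 to 1.72 times in the same library (median 1.13, 7 of 9 above 1). Gata1 among them stood at 1.06 and Klf1 at 1.10 times, and Slc4a1 per Gata1 was 10.1 there, against 3.08 and 3.12 in the other DMSO libraries and 2.36 to 4.29 with compound PD. The late maturation list, which includes Rhag and shares genes with the list of other membrane genes, had all of its 12 listed genes above 1 in this ratio (median 2.05). Early progenitor markers had 1 of 9 above 1 (median 0.651).

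Markers of other cells also differed between the PD libraries. Summed neutrophil markers, all 9 at a mean of at least 1 FPKM and led by S100a9, reached 29071.5 to 36520.5 FPKM with compound PD, against 11361.5 to 17166.8 FPKM in DMSO, where the lowest was replicate 1. Summed megakaryocyte markers, 9 of 9 and led by Pf4, were 7713 FPKM in compound PD replicate 1 (4361 and 4828 FPKM in the other compound libraries) and 4696 FPKM in DMSO replicate 1 (2406 and 2369 FPKM in the others). Mast cell and basophil markers, 7 of 8 and led by Cma1, summed to 1379 to 2832 FPKM with compound PD and 816 to 1559 FPKM in DMSO. Cma1, Cpa3 and Tpsb2 carried that sum, while the basophil proteases of the list did not follow it. Prss34 had 2.60, 2.96 and 2.37 FPKM with compound PD, against 1.30, 31.8 and 31.5 FPKM in DMSO, and Mcpt8 had 5.42, 17.7 and 15.0 FPKM with compound PD, against 2.63, 28.0 and 31.1 FPKM in DMSO. Both were lowest in replicate 1 of DMSO, and these genes were named after their values were seen. Macrophage markers, 2 of 8, summed to 15.4 to 20.3 FPKM with compound PD and 7.37 to 14.9 FPKM in DMSO, with C1qa at 0 in 5 of 6 libraries. Hepatocyte markers summed to at most 0.62 FPKM in any PD library, with Apoa1, Ttr and Serpina1a at 0, lymphoid markers (1 of 8) to at most 8.38 FPKM, with Cd4 at 0, and endothelial and stromal markers (2 of 6) to at most 30.7 FPKM. The part of these cells in the values of the 8 genes was not tested.

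The same lists were also read in the OB libraries. Megakaryocyte markers, 9 of 9, summed to 602 to 1015 FPKM with compound OB and 494 to 1424 FPKM in DMSO, with the highest value of each group in replicate 1. Mast cell and basophil markers, 3 of 8 and led by Cpa3, summed to 8.38 to 12.6 FPKM with compound OB and 7.66 to 30.3 FPKM in DMSO. Macrophage (0 of 8), hepatocyte (0 of 6) and lymphoid markers (0 of 8) summed to at most 1.57, 0.99 and 0.99 FPKM in any library, with C1qb, C1qc, Cd5l, Ttr and Cd3e at 0, and endothelial and stromal markers (1 of 6) to at most 5.31 FPKM.

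**Figure D3:**
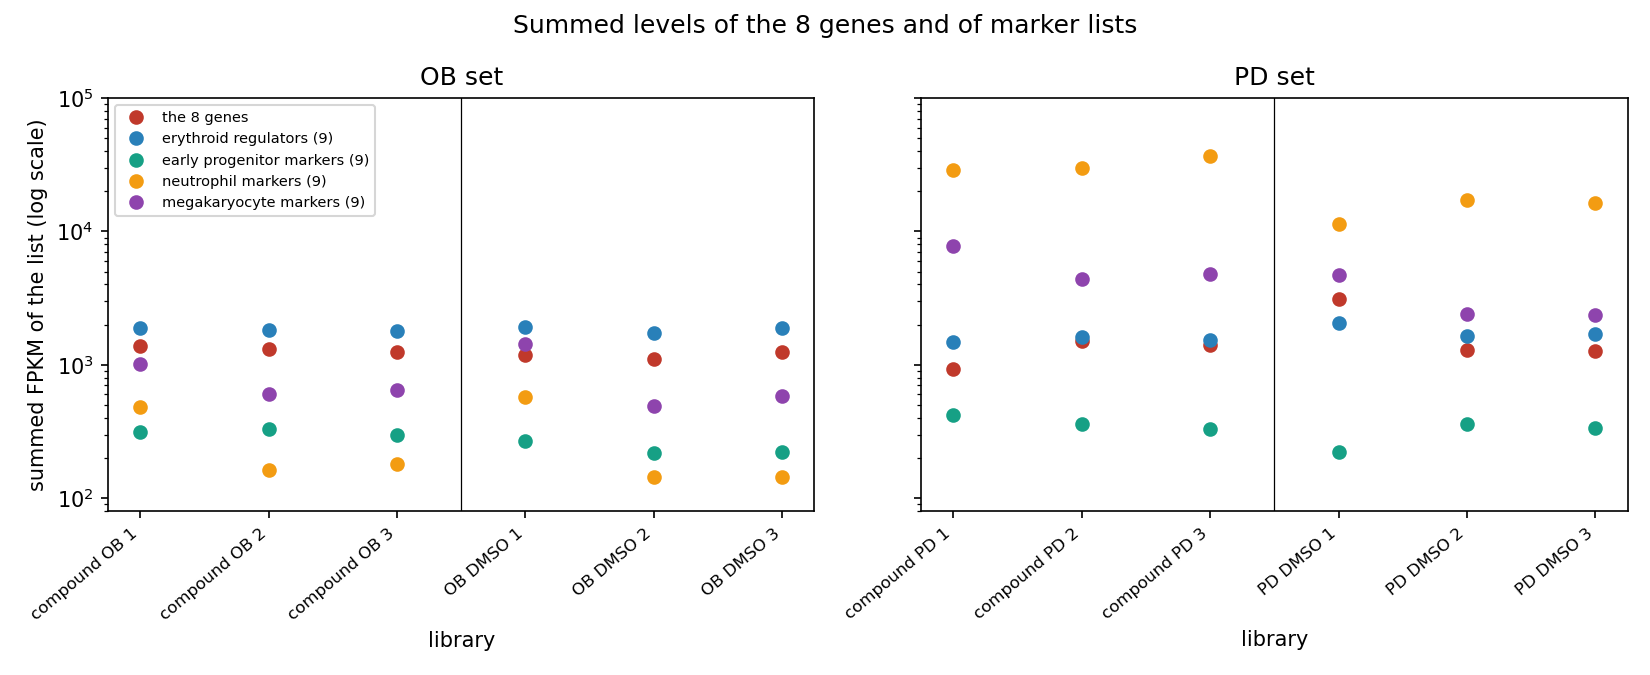
Summed FPKM (log axis) of the 8 genes and of 4 marker lists in each library, compound left of DMSO in each panel. The sum of the 8 genes is 3100 FPKM in PD DMSO replicate 1 and 925 FPKM in compound PD replicate 1, while it spans 1278 to 1498 FPKM in the other PD libraries and 1106 to 1388 FPKM in the OB set.

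The difference between the effects of the compounds, PD minus OB, was tested in one fit of the 12 libraries over 9634 genes. None of the 8 passed, nor did any gene (0%), and 527 genes (5.47%) had an unadjusted p under 0.05. The smallest p among the 8 was that of Sptb (difference of log2 fold changes −0.80, SE 0.29, 95% interval −1.42 to −0.18, adjusted p = 0.779 by limma). Ank1 had −0.77 (SE 0.31) and Rhag −0.70 (SE 0.26), also with an unadjusted p under 0.05. All 8 differences were negative (median −0.68, all genes 0.00), and without PD DMSO replicate 1 they stayed negative with a median of −0.28 (all genes −0.09). Without replicate 1 of all 4 groups, in a fit with the block, 5 of the 8 were positive, with 0.25 for Slc4a1, 0.11 for Epb42 and Epb41, 0.063 for Kel and 0.019 for Rhd, while Sptb (−0.53), Ank1 (−0.52) and Rhag (−0.25) stayed negative. Over all genes in that fit the median was −0.14, with 3190 of 9525 positive. None of the 8 passed there, where 50 genes passed as higher and 55 as lower. None passed without PD DMSO replicate 1 alone either, where 0.0518% of all genes passed as higher and 0.0415% as lower. Compound, dose and set go together here, so compound and set cannot be told apart.

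Within each library the FPKM, which are per length, gave an order of the 8 genes. Slc4a1 was the highest in 12 of 12 libraries. Among the OB libraries Rhag was next in every one and was followed, by mean level, by Rhd, Kel, Epb41, Sptb, Ank1 and Epb42. Kel was above Epb41 in 4 of 6 libraries. Ank1 was above Epb42 in 4 of 6 libraries, while Sptb was above Ank1 in 6 of 6. In the PD set Epb41 was second in every library, and Rhag and Rhd were not ordered beyond the spread (Rhag was the higher in 4 of 6). Sptb was above Kel in 4 of 6 PD libraries and Kel above Ank1 in 3 of 6. The sets list different annotations and were scaled apart, so levels are not compared between them.

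Pairs of genes whose proteins bind each other were set side by side, with Gypc and Xk chosen as known partners after their values were seen. Rhag over Rhd stayed between 1.21 and 1.33 over the OB libraries and between 0.910 and 1.19 over the PD libraries. Epb41 over Gypc, glycophorin C, to which its protein binds, was 1.67 to 1.76 with compound OB and 1.76 to 1.90 in DMSO, but in the PD set 1.80 to 2.49 with compound PD and 1.92, 2.05 and 3.32 in DMSO, the last in replicate 1. Slc4a1 over Ank1 was 5.01 to 7.02 with compound PD, against 9.48 in DMSO replicate 1 and 4.84 and 4.48 in the other DMSO libraries. By contrast, Slc4a1 over Epb42 in PD DMSO replicate 1, 8.62, lay within its range with compound PD, 7.60 to 8.71. The other PD DMSO libraries had 6.80 and 6.89. Over the OB libraries Slc4a1 over Ank1 was 4.10 to 5.96 and Slc4a1 over Epb42 was 5.11 to 7.43. Kel over Xk, the membrane protein joined to Kell in human red cells, was 2.13, 4.19 and 3.78 with compound PD, against 4.37, 3.63 and 3.05 in DMSO. In the OB libraries Kel over Xk was 5.08 to 6.11.

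For each gene the relative with the highest level in DMSO was lower than the red cell member. Slc4a2, the widely expressed anion exchanger, averaged 8.40 ± 1.65 FPKM in OB DMSO and 16.3 ± 3.70 FPKM in PD DMSO (SD, n = 3 each). Sptbn1, the beta spectrin of most other cells, averaged 2.87 ± 0.622 and 16.1 ± 0.728 FPKM. The highest relatives of Epb41 were Epb41l5 in the OB set (5.28 ± 0.682 FPKM) and Epb41l2 in the PD set (5.90 ± 1.08 FPKM), and those of Ank1 were Ank2 (0.440 ± 0.0436 FPKM) and Ank3 (2.21 ± 0.897 FPKM). Rhcg, a kidney Rh glycoprotein, did not exceed 0.03 FPKM in any OB and 0.62 FPKM in any PD library. Tgm2, an active transglutaminase related to Epb42, averaged 28.9 ± 2.05 and 29.6 ± 10.3 FPKM. Mmel1, of the protease family of Kel, averaged 8.89 ± 3.82 and 34.0 ± 26.7 FPKM. Epb42 over Tgm2 was 1.97 in OB DMSO and 3.25 in PD DMSO, and Kel over Mmel1 was 17.1 and 3.25. These are ratios of means that include PD DMSO replicate 1. In that library Mmel1 had 64.5 FPKM, against 14.65 and 22.9 FPKM in the other PD DMSO libraries, and Epb42 had 167 FPKM, against 60.5 and 60.8 FPKM.

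A list of 31 other red cell membrane and skeleton genes, of which 30 were tested in each set, was read from the same fits. With compound OB none passed, 22 of 30 had a positive log2 fold change and the median was 0.10, against 0.16 for the 8 genes and 0.03 for all genes. The smallest unadjusted p-values were those of Ermap, a blood group membrane protein (log2 0.16), the glucose transporter Slc2a1 (0.17), the mechanosensitive channel Piezo1 (0.36), the nucleoside transporter Slc29a1 (0.24), the actin-capping Tmod3 (−0.15) and Stom, stomatin (0.13). Each of these had an adjusted p of 1.00 by limma. Ermap, which was higher, was the 1 gene of the 30 whose groups did not overlap, where 5.31% of all genes were higher and 3.42% lower without overlap. Without replicate 1 of both groups 5 of the 30 passed as higher, where 15.4% of all genes did.

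With compound PD none of the 30 passed either, 22 had a negative log2 fold change and the median was −0.19, against −0.49 for the 8 genes and 0.06 for all genes. The flotillins of membrane rafts had the smallest p-values and were higher. Flot2 had 38.8, 42.8 and 40.7 FPKM with compound PD, against 19.5, 27.9 and 25.3 FPKM in DMSO (log2 0.74, SE 0.18, adjusted p = 0.179 by limma; 0.60 without PD DMSO replicate 1). Flot1 had 88.7, 74.3 and 70.5 FPKM with compound PD, against 45.3, 52.0 and 57.3 FPKM in DMSO (log2 0.59, adjusted p = 0.240 by limma). Next came Art4, the Dombrock blood group protein (log2 −0.74), beta-actin Actb (0.42), the adducin Add2 (−0.46) and Slc2a1 (−0.98), none with an adjusted p under 0.263 by limma. Slc2a1 had 113, 157 and 143 FPKM with compound PD, against 512, 191 and 202 FPKM in DMSO, and its log2 fold change was −0.52 without PD DMSO replicate 1. Of the 30 genes, 5 were higher and 9 lower without overlap, against 13.1% and 3.72% of all genes. Without PD DMSO replicate 1 these counts were 6 higher and 11 lower, against 18.2% and 20.8% of all genes, with 3 libraries against 2.

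**Figure D4:**
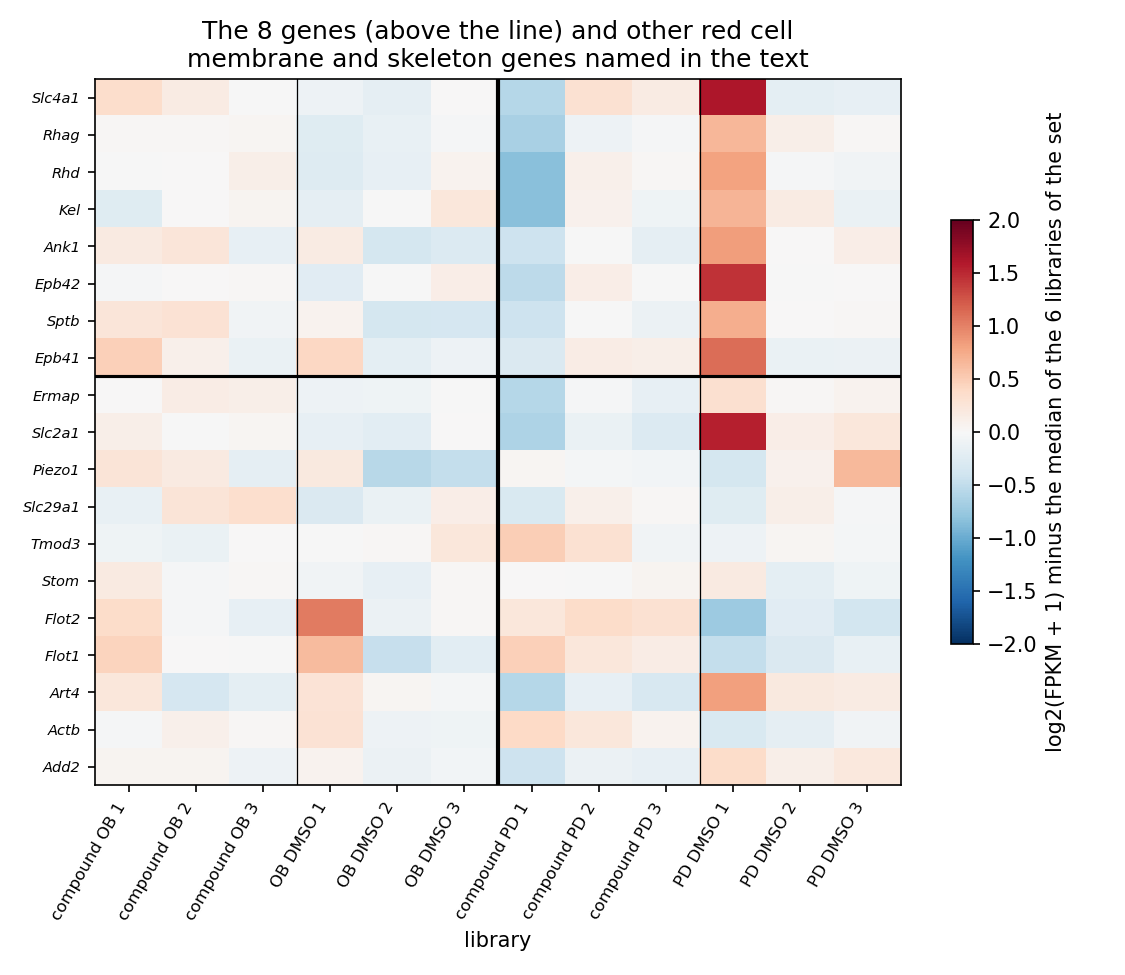
Log2(FPKM + 1) of the 8 genes and, under the line, of the other red cell membrane and skeleton genes named in the text (those with the smallest p for either compound) in each library, minus the median of the 6 libraries of its set (red above, blue below). PD DMSO replicate 1 is red for each of the 8 genes, while Flot1, Flot2 and Actb are blue there.

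Likeness was measured as the root mean square difference of log2(FPKM + 1), centred within each set, over the 12 libraries and 7466 genes that averaged 5 FPKM or more in each set. The nearest profiles to Slc4a1 were Tent5c, a poly(A) polymerase (0.0874), Xpo7, a nuclear export receptor (0.0959), and Alas2, the first enzyme of haem synthesis in erythroid cells (0.121). A flat profile would differ from Slc4a1 by 0.506. The nearest to the median profile of the 8 genes were Urod, a haem synthesis enzyme (0.0772), the cell cycle inhibitor Cdkn1b (0.0921) and the mitochondrial carrier Slc25a51 (0.0932), with 0.313 for a flat profile. All 12 libraries enter these values, PD DMSO replicate 1 included.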

How the data were processed

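RNA was measured in 12 libraries of mouse BFU-E, in 4 groups of 3. The authors deposited FPKM with 2 decimals, 1 table per library. The submitters' processing notes name STAR and mm10. The sources used here give no STAR version, FPKM program, annotation or strand use, so overlapping or antisense genes are uncertain. FPKM carry no counts: ratios of low values were whole within 0.05 in 7.72% of cases (OB) and 8.86% (PD), against 10% by chance, so depth stays unknown and precision is the SD over 3 libraries. Libraries listed 13953 to 19228 symbols above 0.

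Left out were repeated or non-numeric names (417 entries for OB, 191 for PD), names turned into dates (23 and 21) and parts of hyphenated names (15 for OB). For OB, 895 older symbols were matched through RefSeq synonyms (GRCm38.p6).

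Compound and matching DMSO were compared by limma 3.58.1 (R 4.3.3, statmod 1.5.0) on log2(FPKM + 1), with trend and robust moderation, for genes averaging 1 FPKM or more, two-sided, with Benjamini-Hochberg adjustment over all genes tested. This scale understates the change of low genes. The fits were tested on simulated data with independent noise of the same size for all genes. No simulated library stood apart, so that test does not cover the outlying libraries found here. Same-numbered compound OB and DMSO libraries deviated together (r = 0.83, 0.43 and 0.65 over 10073 genes). The main fit did not pair them, and the fit with the block was run as an alternative. Libraries 2 and 3 also deviated together across numbers (r = 0.33 and 0.41), and those of replicate 1 apart from them (r of −0.71 to −0.54).

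The members, lists, tests and motifs were chosen with earlier results of these data known. Named were the 8 members, the 6 listed genes with the smallest p where none passed, the highest relative of each member, the leading marker of a list and the 3 most alike profiles. Motifs were searched on both strands. Python 3.11.15, pandas 2.3.3, numpy 2.4.6 and matplotlib 3.10.9 were used.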

Additional observations from a re-analysis of the deposited data

How the results depend on the processing

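No member passed in either compound's comparison, or in their difference, with a pseudocount of 0.1, no filter, median-ratio scaling, quantile normalization, plain limma or the replicate block. Limma array weights gave 2484 calls among 10073 genes for compound OB, 1857 of them higher. They gave 394 among 11887 genes for compound PD and 455 among 9634 for the difference. With these weights 2 of 8 members (Sptb and Ank1, both higher) passed for compound OB and 1 (Sptb, log2 −0.71) for the difference. Calls for compound OB were thus common among all genes and not particular to the members. In the same setting 9, 1 and 1 of the 30 other membrane genes passed, and the log2 fold change turned to −0.074 for Epb42 (OB), 0.21 for Slc4a1 and 0.12 for Epb41 (PD) and 0.025 for Slc4a1 (difference). The cause was not tested.

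The replicate block, with 7 calls for compound OB and 41 (36 higher) for compound PD against 0 and 3 without it, changed the call of none of the 8 members. The PD numbers share only a number, with r of −0.005, −0.03 and −0.02 between same-numbered libraries. With no filter or with plain limma the PD count was 0 (1304 and 1296 genes at an unadjusted p under 0.05).

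Leaving out single libraries gave 0 member calls, 0 to 14 calls in all for compound OB, 0 to 167 for compound PD (167 without PD DMSO replicate 1) and 0 to 9 for the difference. Signs turned within −0.057 to 0.12 (Epb42), −0.048 to 0.30 (Epb41) and −0.17 to 0.037 (Kel) for compound OB, and within −0.76 to 0.15 (Slc4a1) and −0.51 to 0.11 (Epb41) for compound PD. Without replicate 1 of both groups there were 2 member calls, 5 of the 30 other genes and 1773 in all for compound OB, and 252 in all for compound PD. There Epb42 turned to −0.046 (OB) and 0.066 (PD), Slc4a1 to 0.41, Epb41 to 0.25 and Rhd to 0.12 (PD). With the block, leaving out replicate 1, 2 or 3 gave 1133, 146 and 3 calls (1, 0 and 0 members and 5, 1 and 0 of the other genes) for compound OB, 206, 70 and 82 (0, 1 and 1 of the other genes) for compound PD and as many as 105 for the difference. In that fit without replicate 1 the fold changes of both compounds had the same values, and the difference turned to 0.25 (Slc4a1), 0.11 (Epb42 and Epb41), 0.019 (Rhd) and 0.063 (Kel). Array weights did not reach their convergence tolerance in every fit, and fits on 2 libraries a group have few degrees of freedom of their own. For compound OB without replicate 1 of both groups, moderation gave nearly alike SEs between genes. The p-values of that fit rest on a pooled spread and not on that of each gene. Depth is unknown, so counting error could not be given.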
